A study of Rattus norvegicus with 16 samples.

Results

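The mitochondrial genome encodes 7 subunits of NADH:ubiquinone oxidoreductase, respiratory complex I, and this account follows their transcripts in rat hearts after streptozotocin. The 7 genes were taken by Ensembl identifier, out of 23918 genes in the count files: mt-Nd1 (ENSRNOG00000030644), mt-Nd2 (ENSRNOG00000031033), mt-Nd3 (ENSRNOG00000033615), mt-Nd4l (ENSRNOG00000031053), mt-Nd4 (ENSRNOG00000029707), mt-Nd5 (ENSRNOG00000029971) and mt-Nd6 (ENSRNOG00000029042). All 7 were found in every one of the 16 libraries and all 7 passed the filter on low counts.

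Heart tissue came from adult male Wistar rats in 3 groups: 4 controls that received no agent, 6 rats given a single streptozotocin dose of 55 mg/kg into a tail vein (D55) and 6 given 100 mg/kg (D100). Streptozotocin kills pancreatic beta cells, which make insulin, and so models diabetes through loss of insulin. Hearts were drained of blood and collected 4 days into follow-up, and the labels describe each library as a separate rat. The labels give no vehicle injection for the controls. The comparison of doses addresses how cardiac gene expression differs with the severity of the diabetes, the subject the series names.

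Complex I takes electrons from NADH, passes them to ubiquinone and pumps protons across the inner mitochondrial membrane. Its mitochondrially encoded subunits form the core of the membrane arm, while the remaining subunits come from nuclear genes. ND1 lies where the membrane arm meets the ubiquinone-binding part; ND2, ND4 and ND5 are the antiporter-like subunits that carry out proton pumping; and ND3, ND4L and ND6 are small subunits that link ND1 to the pumps. Mitochondrial DNA is transcribed as long precursor RNAs that are cut into single messages, so one precursor gives rise to several of these transcripts. ND6 alone among the 7 is read from the opposite DNA strand, and ND4L and ND4 share one overlapping message. Heart muscle is rich in mitochondria, and mitochondrial transcripts are abundant in its RNA.

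The libraries held 4685336 to 48402537 estimated counts, and D100 F was the shallowest. Controls held 26207101 to 48269249, D55 libraries 18495170 to 48402537 and D100 libraries other than D100 F 20323939 to 25581178. A single complex I gene had 15072 to 2056840 counts in a library, so counting error is small beside the spread between rats. A few genes took a large part of each library. The 10 most abundant genes of the series took up 49.7% ± 7.60 (SD, n = 4) of the control libraries on average, 43.6% ± 11.1 (SD, n = 6) of the D55 libraries and 60.8% ± 5.90 (SD, n = 6) of the D100 libraries. Libraries D55 B and D55 E stood apart, with 30.1% and 30.4%, and the calls between the doses are given with and without them. The files pair no identifier with a gene name, so the heart muscle markers and markers of other cell types could not be read here.

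Together the 7 transcripts made up between 7.30% and 23.6% of all counts in a library. Control libraries 1 to 4 gave 11.2%, 11.2%, 17.7% and 13.5% of their counts to the set, a mean of 13.4% ± 3.06 (SD, n = 4). D55 libraries ranged from 7.30% to 15.5% with a median of 12.0%, and their mean was 11.4% ± 3.25 (SD, n = 6). D100 libraries ranged from 15.0% to 23.6% with a median of 17.3% and a mean of 18.1% ± 3.07 (SD, n = 6). Thus 3 of the 4 controls lay below every D100 library, and Control 3 lay among them. D55 B and D55 E had the lowest shares, 8.06% and 7.30%, and without them the D55 mean was 13.3%. The control mean was 13.4% with all 4 controls and 12.0% without Control 3. D55 D, at 15.5%, lay above the lowest D100 library. No test was made of this sum, because the genes were chosen with earlier results of these data known.

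**Figure D1:**
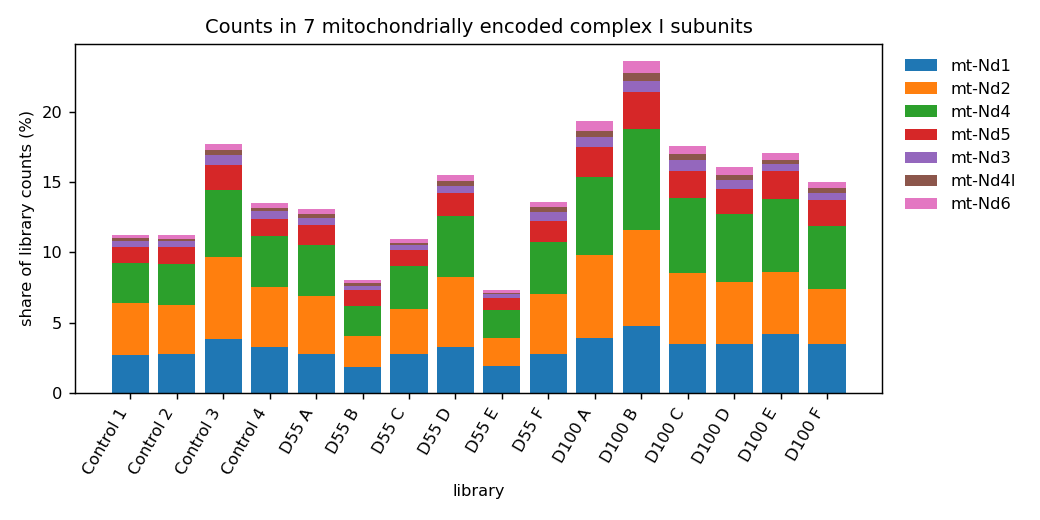
Stacked bars give the percent of each library's estimated counts that fell on each of the 7 complex I genes, for 16 libraries. The D100 bars reach 15.0% to 23.6%; among the controls, library 3 reaches 17.7% while the other 3 stay between 11.2% and 13.5%.

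Of the 10 most abundant genes of the series 4 belong to the set. The 6 others held 37.3% ± 4.92 of counts on average in the 4 controls, 33.1% ± 8.19 in the 6 D55 libraries and 44.4% ± 4.06 in the 6 D100 libraries (SD). Depth moved with the groups as well, since D100 libraries were the shallowest on average. The part of either in the results was not tested. In whole hearts, more RNA per cell and a larger proportion of mitochondria-rich cells cannot be told apart. Libraries were made from polyadenylated RNA, so the level of a mitochondrial transcript and the share of its molecules that carry a poly(A) tail cannot be told apart either.

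Levels of single genes are given in CPM, counts scaled to a common library total with TMM factors; TMM is a scaling that assumes most genes do not differ. A gene counted as called at an adjusted p of 0.05 or less in edgeR's quasi-likelihood test, adjusted by Benjamini-Hochberg over all 14175 genes tested. Fold changes are log2 values with their standard error. Each value compares libraries for one gene; no transcript lengths were used, so levels of different genes are not compared per length.

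Among the antiporter-like subunits, mt-Nd4 encodes a central proton-pumping subunit of the membrane arm. Its level was 22691, 23094, 57458 and 35528 CPM in controls 1 to 4, with a mean of 34693 CPM ± 16304 (SD, n = 4). In D55 it ranged from 13177 to 45118 CPM around a median of 28103, and in D100 from 43699 to 127000 CPM around a median of 68578. All D100 libraries lay above 3 of the controls, while Control 3 and D55 D reached into the D100 range. Set against D55, mt-Nd4 was 2.65-fold higher in D100, or 1.41 on the log2 scale (SE 0.36, edgeR adjusted p = 0.0167). Against control the D100 value was 1.07 (SE 0.41) and did not pass (edgeR adjusted p = 0.144).

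The subunit made from mt-Nd5 sits at the far end of the membrane arm. Controls held 8724, 9601, 21881 and 11668 CPM of its transcript. D55 libraries ran from 5756 to 16915 CPM with a median of 10919, and D100 libraries from 17927 to 46192 CPM with a median of 24821. This was the gene of the set whose D100 and D55 values did not overlap, which held for 1 of the 7 against 1.88% of all tested genes in that direction. Its rise from D55 to D100 measured 1.29 on the log2 scale (SE 0.32, edgeR adjusted p = 0.0158).

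The third pump subunit, encoded by mt-Nd2, showed the smallest fitted differences involving D100. Its control levels were 30110, 27527, 70098 and 41639 CPM. In D55 they ran from 13652 to 52267 CPM (median 31059) and in D100 from 37789 to 121002 CPM (median 63757). Control 3 lay above D100 D, E and F, Control 4 above D100 F, D55 D above D100 E and F, and the ranges of all groups overlapped. The difference of D100 from D55 passed the threshold at 1.16 (SE 0.38, edgeR adjusted p = 0.0311), and that of D100 from control, 0.70 (SE 0.43), did not (adjusted p = 0.324).

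The transcript of mt-Nd1, the subunit next to the ubiquinone site, stood at 21380, 21768, 46227 and 32271 CPM in controls. It ranged from 12326 to 34000 CPM in D55 (median 23144) and from 33504 to 84604 CPM in D100 (median 46754). The dose groups overlapped through a single pair, D55 D at 34000 CPM and D100 F at 33504 CPM, and Control 3 lay above D100 D, E and F. Between the doses mt-Nd1 rose by 1.22 (SE 0.30, edgeR adjusted p = 0.0158), and against control the D100 value of 0.76 (SE 0.34) did not pass (adjusted p = 0.202).

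The small linking subunits were less abundant in counts. The gene mt-Nd6 is read from the opposite strand. The settings of kallisto were not stated, so its counts are not shown to come from that strand alone. For mt-Nd6, controls gave 1829, 2173, 5593 and 3919 CPM. D55 gave 1317 to 4884 CPM (median 2788) and D100 4498 to 15002 CPM (median 7326). Of the 7, mt-Nd6 had the highest fitted rise from D55 to D100, at 1.51 (SE 0.38, edgeR adjusted p = 0.0158), though the standard errors of the 7 values overlap. For mt-Nd3, controls gave 3655, 3217, 8012 and 5660 CPM, D55 1477 to 5940 CPM (median 3520) and D100 4912 to 15000 CPM (median 9197). Its rise between the doses was 1.30 (SE 0.38, edgeR adjusted p = 0.0228). In both genes the lowest D100 libraries lay within the D55 range, and Control 3 lay within the D100 range, as did Control 4 for mt-Nd3.

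The mt-Nd4l transcript, whose reading frame overlaps that of mt-Nd4, differed from the others in its control values: 1528, 1315 and 1480 CPM in controls 1, 2 and 4, and 4284 CPM in Control 3. D55 libraries spread from 678 to 3474 CPM (median 2186) and D100 libraries from 2897 to 10126 CPM (median 5510). The D100 libraries thus all lay above 3 controls, and D55 A, D and F exceeded the lowest D100 library, D100 E. D100 was higher than D55 by 1.37 (SE 0.44, edgeR adjusted p = 0.0297); against control the value was also 1.37 (SE 0.51) and did not pass (adjusted p = 0.135). By its fractional estimates, this gene is measured less surely than mt-Nd3 and mt-Nd6. Where its estimate lay under 100000, 2 of 12 libraries gave a whole number to within 0.05, so kallisto divided some of its reads with other transcripts. By the same measure all 5 such estimates of mt-Nd6 and all 3 of mt-Nd3 were whole. For mt-Nd5 there was 1 such estimate, and it was whole. The genes mt-Nd1, mt-Nd2 and mt-Nd4 had 0 estimates under 100000, so the measure could not be applied to them. Which transcripts shared the reads of mt-Nd4l was not tested.

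**Figure D2:**
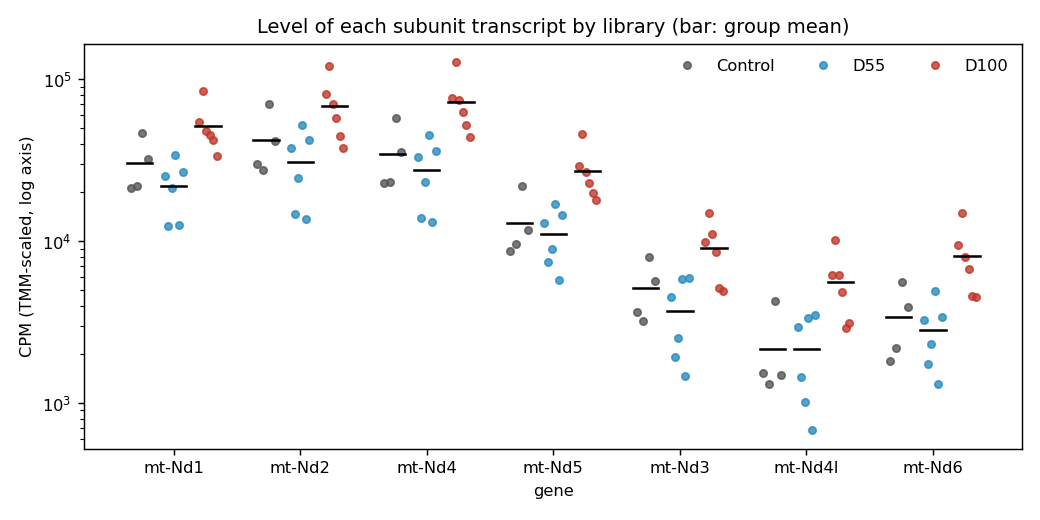
Points give TMM-scaled CPM per library on a log axis for each gene, coloured by group (4 controls, 6 D55, 6 D100), with bars at group means. In every gene the D100 mean is the highest, and Control 3 sits within the D100 range, as does Control 4 for mt-Nd2 and mt-Nd3.

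Compared with each other, the doses differed for all 7 genes: 7 of 7 were called higher in D100 than in D55 and 0 lower. Of all tested genes 35.6% were called in this comparison, 13.7% higher and 21.8% lower. Among the 34 other genes with a mean of at least 1000 CPM, 32.4% were called higher and 17.6% lower. The log2 fold changes of the 7 ran from 1.16 to 1.51 with a median of 1.30, beside a median of -0.03 over all genes tested and 0.19 over the 34 abundant genes outside the set. These calls were not kept without D55 B and D55 E: 0 of 7 then passed in edgeR, with adjusted p-values of 0.109 to 0.196. Of all genes 0.462% were then called higher and 0.426% lower. The log2 fold changes were then 0.94 for mt-Nd1, 0.81 for mt-Nd2, 0.95 for mt-Nd3, 1.05 for mt-Nd4l, 1.08 for mt-Nd4, 1.03 for mt-Nd5 and 1.22 for mt-Nd6. The lowest D55 level of each gene was that of D55 B or E, and without both the D55 median was, for example, 34628 CPM for mt-Nd4 and 26009 CPM for mt-Nd1. Leaving out D55 B, D55 E, D100 B or D100 C alone left 4 of 7 called in each case. The share of all genes called higher then went from 13.7% to 2.41%, 2.9%, 3.43% and 4.78% in that order. When a difference of more than 1.5-fold was required 0 of 7 passed, beside 0.0141% of all genes higher and 0.0212% lower.

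Set against the controls, D100 gave positive values for all 7 genes, from 0.70 for mt-Nd2 to 1.37 for mt-Nd4l, but none passed in edgeR. The median was 1.07 for the set, -0.03 for all genes tested and 0.13 for the 34 abundant genes outside it. Adjusted p-values ran from 0.105 for mt-Nd5 to 0.324 for mt-Nd2, and 5 of the 7 had an unadjusted p under 0.05, as did 22.8% of all genes. Of all genes 4.38% were called, 1.92% higher and 2.46% lower; of the 34 abundant genes, 11.8% were called higher and another 11.8% lower. The call depended on the fit: DESeq2 called 4 of 7 higher (mt-Nd4l, mt-Nd4, mt-Nd5 and mt-Nd6) and limma-voom 7 of 7. Here limma-voom was run with quality weights, by which libraries count unequally, so it differed from edgeR in more than the test. DESeq2 called 5.47% of all genes higher and 4.68% lower, and limma-voom 30.9% higher and 36.8% lower. D55 B and E belong to neither group here and enter only the shared filter, scaling and estimate of spread. Leaving both out gave 2 of 7 in edgeR, with 5.13% of all genes called higher. Leaving out D100 F as well gave 5 of 7, with 10% of all genes called higher.

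Control 3 weighed on this comparison. Since it had the highest control level of all 7 genes, leaving it out had to raise the differences and could not add overlap. With it, 0 of the 7 had D100 values wholly above the controls, against 3.15% of all genes; without it 5 of 7 did (all but mt-Nd2 and mt-Nd3), against 9.88% of all genes. Leaving Control 3 out raised the median log2 fold change of the set from 1.07 to 1.42, and 2 genes passed in edgeR, mt-Nd4l (adjusted p = 0.0454) and mt-Nd5 (adjusted p = 0.0372), while 2.5% of all genes were called higher and 2.73% lower. Nothing in the labels sets this rat apart. The 10 most abundant genes of the series, 4 of them members, held 59.4% of its counts, within the D100 range of 53.4% to 69.0% and above the other controls, which reached 51.9% at most. The part of this in the result was not tested.

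D55 showed no detectable difference from control in any of the 7: 0 of 7 were called, beside 0.0635% of all genes (0.0564% higher, 0.00705% lower). Fitted log2 fold changes lay between -0.47 for mt-Nd3 and -0.0019 for mt-Nd4l, with a median of -0.34 against 0.03 for all genes, and standard errors of 0.33 to 0.49 that are as large as most of the values. None of the 7 had an unadjusted p under 0.05, against 8.97% of all genes. The direction was not settled either. With its quality weights limma-voom gave positive values for all 7, from 0.17 for mt-Nd1 to 0.86 for mt-Nd4l, with 0 called. Without D55 B and E the edgeR median of the set was -0.02. DESeq2 called 0 of 7. The controls are shared by both dose comparisons, so the signs of the D55 and D100 values are not independent.

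**Figure D3:**
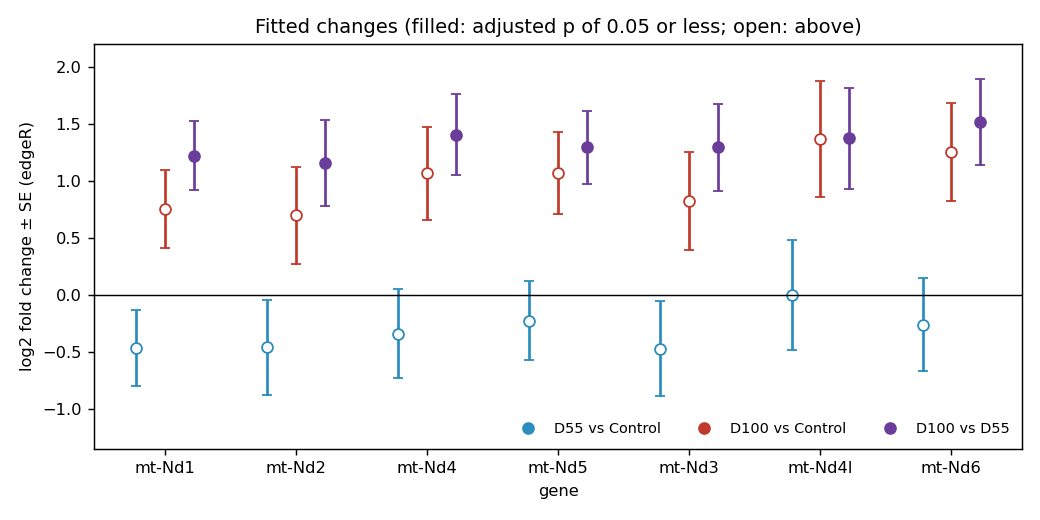
Points give the edgeR log2 fold change of each gene with its standard error for 3 comparisons; filled points passed an adjusted p of 0.05. All 7 D100 against D55 values are filled, between 1.16 and 1.51, and all D100 against Control and D55 against Control values are open.

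A scaling factor moves all genes of a library alike. Without scaling factors the median of the set in D100 against control was 0.62 and that of all genes -0.48, and 0 of 7 were called. Between the doses the medians were 0.69 and -0.65, and 5 of 7 genes were called in place of 7. Over all genes the balance of calls did shift without scaling factors, to 0.635% higher and 7.65% lower in D100 against control and to 0.995% higher and 48.5% lower between the doses. Computing totals and factors without the 7 genes themselves again called 7 of 7 between the doses, with 13.8% of all genes called higher and 21.8% lower.

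The 7 transcripts varied together from rat to rat. Over the 16 libraries, Pearson's r between 2 of them in log2 CPM ran from 0.896 to 0.992 over the 21 pairs, with a median of 0.964, and the median was also 0.964 after group means were subtracted. These values are descriptions: all genes of a library share its scaling factor and depth. The closest pair was mt-Nd1 and mt-Nd4 (after subtraction of group means, mt-Nd2 and mt-Nd4), and the loosest by both measures was mt-Nd1 and mt-Nd4l. For mt-Nd4 no gene outside the set matched the other members better than mt-Nd4 itself did (mean r 0.976), whereas for mt-Nd4l (mean r 0.933) 432 of 14168 outside genes did. The outside gene most like the set was ENSRNOG00000031979.3, with a mean r of 0.972 to the 7 over 16 libraries and 45935, 37070 and 76794 CPM on average in controls, D55 and D100. Next came ENSRNOG00000056701.1, with a mean r of 0.966 at 59.7, 48.1 and 122 CPM. Within a group, the median coefficient of variation of the 7 was 46.8% in controls, 46.8% in D55 and 42.0% in D100, against 19.0%, 32.7% and 26.0% for the 34 abundant genes outside the set. The first of these values rested on Control 3: without it the control median was 24.6% for the set and 10.2% for the abundant genes. Without D55 B and E the D55 median was 29.3% for the set and 17.4% for the abundant genes. Both omissions were chosen after the values had been seen.

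Although the levels varied together, the proportions within the set were not the same in each group. As a share of the summed counts of the 7, mt-Nd4 made up 25.2%, 26.0%, 26.9% and 26.9% in controls 1 to 4, a mean of 26.3% ± 0.796 (SD, n = 4). It ranged from 26.0% to 27.8% in D55 (mean 27.3% ± 0.663, SD, n = 6) and from 28.6% to 30.5% in D100 (mean 30.0% ± 0.713, SD, n = 6). Every D100 library, including the shallow D100 F at 30.1%, lay above every control and every D55 library. Of all tested genes, 0.205% were higher relative to the sum of the set in every D100 library than in every control, and 0.00705%, which is mt-Nd4 itself, than in every D55 library. The sum of the set was itself highest in D100, so a gene had to exceed that difference to be higher by this measure. This share does not depend on the scaling between libraries.

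The opposite held for mt-Nd2. It made up 33.5%, 31.0%, 32.8% and 31.5% of the set in controls, 27.5% to 32.2% in D55 (median 30.4%) and 25.9% to 30.5% in D100 (median 28.1%). D100 libraries all lay below the controls, as did 6.63% of all genes by this measure, and they overlapped with D55. Among the other members mt-Nd1 averaged 23.6%, 22.8% and 21.6% in controls, D55 and D100, mt-Nd5 9.90%, 11.4% and 11.3%, mt-Nd3 3.93%, 3.59% and 3.71%, mt-Nd6 2.52%, 2.84% and 3.23%, and mt-Nd4l 1.58%, 2.07% and 2.24%. Relative to its own level mt-Nd4l had the largest fitted difference of D100 from control within the set. It was 0.51 on the log2 scale (SE 0.24, edgeR adjusted p = 0.116), and mt-Nd6 had the next, 0.36 (SE 0.15, edgeR adjusted p = 0.0887). Both overlapped between the groups in their share of the set, and some reads of mt-Nd4l were divided with other transcripts.

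**Figure D4:**
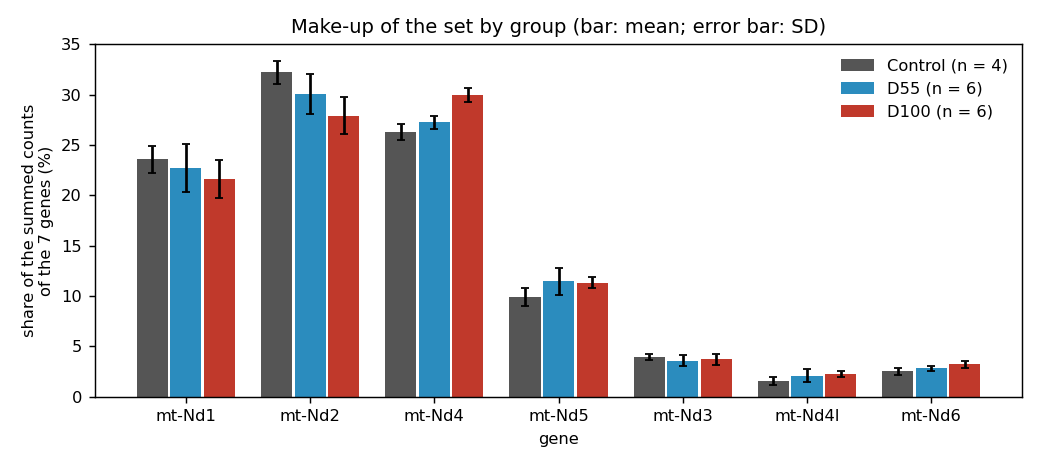
Bars give the mean percent of the summed counts of the 7 genes that fell on each gene, with SD, in 4 control, 6 D55 and 6 D100 libraries. The mt-Nd4 bar is tallest in D100 (30.0% against 26.3% in controls) and the mt-Nd2 bar shortest in D100 (27.9% against 32.2%).

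The count ratio of mt-Nd2 to mt-Nd4, both pump subunits, shows this within single libraries. It was 1.33, 1.19, 1.22 and 1.17 in controls 1 to 4, 1.04 to 1.16 in D55 and 0.851 to 1.07 in D100. The control mean was 1.23 ± 0.0690 (SD, n = 4), the D55 mean 1.10 ± 0.0546 (SD, n = 6) and the D100 mean 0.932 ± 0.0784 (SD, n = 6). Transcripts of mt-Nd2 outnumbered those of mt-Nd4 in counts in 4 of 4 controls and 6 of 6 D55 libraries, but in 1 of 6 D100 libraries. Both dose groups lay wholly below the controls. The share of all genes whose ratio to mt-Nd4 did so was 0.148% for D55 and 12.9% for D100. The dose groups overlapped only through D100 A at 1.07. Leaving out D55 B and E left a near tie, D100 A at 1.06793 and D55 C at 1.06787. This pair was singled out after its values were seen, and no test was made of it.

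Of the 21 ratios between 2 members, 1 separated D55 from control without overlap, 6 separated D100 from control and 0 separated the doses. The 6 were the ratios of mt-Nd2 to mt-Nd4, mt-Nd4l, mt-Nd5 and mt-Nd6 and those of mt-Nd3 to mt-Nd4l and mt-Nd6, all lower in D100. Some reads of mt-Nd4l were divided with other transcripts, which makes the ratios to mt-Nd4l less sure. Among all genes, 14% had a lower ratio to mt-Nd5 without overlap, 13.5% to mt-Nd6 and 8.07% to mt-Nd4l. The ratio of mt-Nd1 to mt-Nd4 averaged 0.899 in controls, 0.836 in D55 and 0.721 in D100, with overlap through Control 3 (0.805) and D100 E (0.808). The ratio of mt-Nd6, the gene on the opposite strand, to mt-Nd4 ranged from 0.0806 to 0.110 in controls. It ranged from 0.0937 to 0.125 in D55 and from 0.0880 to 0.125 in D100, so the groups overlapped widely.

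**Figure D5:**
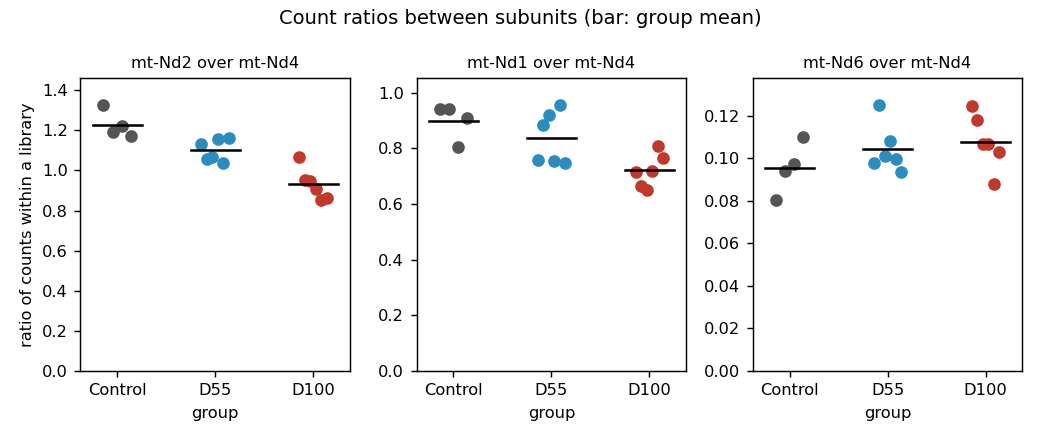
Points give the ratio of counts of 2 genes within a library by group, with bars at group means. For mt-Nd2 over mt-Nd4 the controls (1.17 to 1.33) lie above all D55 (1.04 to 1.16) and D100 (0.851 to 1.07) libraries, and for mt-Nd1 over mt-Nd4 and mt-Nd6 over mt-Nd4 the groups overlap.

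When libraries were scaled to the summed count of the 7 genes and all genes were tested again, 0 of 7 members passed in edgeR in any comparison. In D100 against control mt-Nd4 measured 0.19 (SE 0.11, adjusted p = 0.169), mt-Nd2 -0.21 (SE 0.12, adjusted p = 0.164) and mt-Nd6 0.36 (SE 0.15, adjusted p = 0.0887), while 8.92% of all genes were called. Between the doses mt-Nd4 measured 0.14 (SE 0.10, adjusted p = 0.199) with 83.6% of all genes called, and for D55 against control 0.00705% of genes were called. DESeq2 with the same scaling called mt-Nd4 (adjusted p = 0.000137), mt-Nd2 (adjusted p = 0.0311) and mt-Nd6 (adjusted p = 0.0277) in D100 against control, where it called 31.8% of all genes. Between the doses it called mt-Nd4 (adjusted p = 0.000275) and 87.9% of all genes. For mt-Nd4 in D100 against control the standard error was 0.11 in edgeR and 0.040 in DESeq2. The lack of calls in edgeR thus does not show that the proportions were alike. This scaling and its tests were chosen after the proportions had been seen.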

How the data were processed

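Polyadenylated RNA of 16 rat hearts was sequenced, 1 library per rat, from a stranded mRNA kit per the labels' protocols. The authors deposited estimated counts per gene made with kallisto 0.43.1 on Rnor_6.0, per the submitters' processing notes; its settings were not stated. Counts were rounded to whole numbers and genes were filtered with filterByExpr, which kept 14175 of 23918. All 16 libraries entered 1 fit in edgeR 4.0.16 (R 4.3.3) with TMM scaling, the quasi-likelihood test and Benjamini-Hochberg adjustment at 0.05. Alternatives used DESeq2 1.42.0, limma-voom with quality weights for the libraries (limma 3.58.1), other scalings and filters, and fewer libraries. The fit was tested on simulated data. CPM were computed from TMM-scaled totals, and log2 CPM with a prior count of 2.

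All 7 genes are named; genes most like them were the 5 with the highest mean correlation, of which 2 are given by identifier. Members and lists were chosen with earlier results of these data known. Symbols of the 7 come from the member list. Lists of other complex I, mitochondrial and cell type genes were not tested, because 0 of 47357 reference rows held an Ensembl identifier. No sequence of the 7 was used here. Libraries of 1 group differed by more than counting noise, so none was counted as a repeat.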

Additional observations from a re-analysis of the deposited data

Results flagged for a closer look

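The level of mt-Nd4l in Control 3 was 4284 CPM, far from the other 3 controls at 1315 to 1528 CPM. The gap to the nearest control was 0.928 of the group's range, above Dixon's critical value of 0.829 for 4 samples. It was the only flag among 27 groups of values examined, and chance flags about 1 in 20. Control 3 had the highest control level of all 7 genes. Without it, mt-Nd4l was 1.95 higher in D100 than in control on the log2 scale (SE 0.53, edgeR adjusted p = 0.0454), and with it 1.37 (SE 0.51, adjusted p = 0.135).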

How the results depend on the processing

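Between the doses, 7 of 7 genes were called in edgeR, with 13.7% of all genes called higher. Without D55 B and E 0 of 7 were called, with 0.462% of all genes called higher, and 0 also without D100 F, with 1.17%. A 1.5-fold threshold called 0 of 7, beside 0.0141% of all genes higher and 0.0212% lower. With the letter of D55 and D100 rats as a replicate block, 0 of 7 were called (edgeR adjusted p 0.0529 to 0.0764). In that fit 0 of all 13295 genes tested were called. Same-lettered rats had correlations of -0.50 to 0.63 and 1 of 6 matched its own letter best. The labels do not say what the letters mark. With 6 pairs these values cannot settle whether same-lettered rats belong together. Leaving out 1 library at a time gave 4 to 7 calls. In D100 against control 0 were called in edgeR, but 4 in DESeq2 and 7 in limma-voom. In edgeR 2 were called without D55 B and E, 5 also without D100 F, and 0 to 2 leaving out 1 library. Of all genes 1.92% were called higher in the main fit, 5.47% in DESeq2 and 30.9% in limma-voom with quality weights. Those called lower were 2.46%, 4.68% and 36.8% in that order. The share called higher was 5.13% without D55 B and E and 10% also without D100 F. No direction reversed in either comparison. The cause of these shifts was not tested.

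For D55 against control 0 of 7 were called under every alternative run, and directions were unstable. For mt-Nd4l the log2 value became 0.0051 with DESeq2 size factors, 0.0050 in DESeq2, 0.16 without scaling, 0.0099 without the 10 most abundant genes, 0.024 with a stricter filter, 0.0086 with only both groups compared, and 0.32 without D55 B and E, with or without D100 F. In limma-voom the values were 0.17 (mt-Nd1), 0.29 (mt-Nd2), 0.34 (mt-Nd3), 0.86 (mt-Nd4l), 0.44 (mt-Nd4), 0.47 (mt-Nd5) and 0.61 (mt-Nd6). Without D55 B and E, mt-Nd5 was 0.037 and mt-Nd6 0.031, and also without D100 F 0.037 and 0.032. Leaving out 1 library gave -0.19 to 0.58 for mt-Nd4l, -0.54 to 0.016 for mt-Nd4, -0.39 to 0.15 for mt-Nd5 and -0.49 to 0.093 for mt-Nd6.

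Relative to the summed set between the doses, mt-Nd3 was -0.0015 and mt-Nd5 0.076 without D55 B and E; leaving out 1 library gave -0.014 to 0.13 for mt-Nd3, -0.0055 to 0.20 for mt-Nd4l and -0.043 to 0.047 for mt-Nd5. With the 10 most abundant genes taken out of the total, the summed counts of the set equalled 27.9% (control), 21.8% (D55) and 48.0% (D100) of that total; leaving out 1 library gave 12.0% to 14.2%, 10.6% to 12.2% and 17.0% to 18.7% of the full total.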
